A study of Bos taurus with 12 samples.

Results

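The miR-34 and miR-449 family was followed in granulosa cells of bovine follicles. Its members were taken by name from the mature bovine miRNAs that were counted, as bta-miR-34a, bta-miR-34b, bta-miR-34c, bta-miR-449a, bta-miR-449b, bta-miR-449c and bta-miR-449d. The choice went by name, but it was made with earlier results of these data known. The members were 7 of 755 mature names. A miRNA was taken as detected in a group when 2 or more of the group's 3 libraries had a read of it, and on this rule 5 members were detected in at least 1 group, of 378 such names in all. Small RNA had been sequenced from 12 granulosa cell samples of Simmental heifers, with 3 libraries for each of 4 groups. The groups were subordinate follicles (SF) and dominant follicles (DF), both taken on 2 days of the estrous cycle, day 3 and day 7. All heifers had been synchronized with the prostaglandin analogue cloprostenol and the GnRH analogue buserelin. Follicles had been assigned to SF or DF by diameter alone, and granulosa cells were spun out of follicular fluid pooled by follicle size, so a library is not tied to an animal. Different heifers were slaughtered on the 2 days. The DF at day 7 were no more numerous than their libraries, so that a library of this group may represent a single follicle.

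Granulosa cells line the inside of the follicle wall, nourish the oocyte and convert androgens to estradiol as a follicle becomes dominant, whereas they stop dividing and die as a subordinate follicle regresses. The miR-34 and miR-449 miRNAs are grouped by the likeness of their seeds, the stretch at the 5′ end that pairs with target mRNAs. They are therefore expected to bind overlapping targets, but the sequences of the 7 members were not compared here. Known targets include cyclins, cyclin-dependent kinases, MET, NOTCH1 and the survival factor BCL2. The miR-34 genes are induced by the tumour suppressor p53 and are known for cell cycle arrest and apoptosis. The miR-449 genes are induced by E2F1 and are best known in ciliated epithelia, such as those of the airway and oviduct, and in testis. All 7 members were matched to the RefSeq annotation of the assembly ARS-UCD2.0, which is not the build the reads were aligned to and was used here for neighbourhood only. MIR34B and MIR34C were next to each other within BTG4 and HOATZ, and MIR449A, MIR449B and MIR449C were next to each other within CDC20B, a gene of multiciliated cells. MIR34A lay apart from the other members within GPR157, and MIR449D lay on another chromosome than the miR-449 cluster, within NAV2.

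The reads on known miRNAs ranged from 160418 to 405129 per library, the lowest being replicate 2 of DF at day 7. The 3 reads taken as the floor of detection made between 0.000741% and 0.00187% of a library, and this covers counting error only. Within groups, replicates varied beyond counting error, the chi-square of a pair of replicates being 10.2 to 128 per degree of freedom. The gonadal miRNA bta-miR-202, the only marker of the tissue on the lists used here, was present in every library, at 2213 to 3673 normalized reads in the SF groups and DF at day 3, and at 364 to 976 in DF at day 7. Normalized reads are read counts divided by the size factor of the library. They describe a share of the small RNA, so fewer cells that express a miRNA and less of it per cell cannot be told apart.

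The family was a minor component of these granulosa cells. It took 678 of 3399610 reads, or 0.0199%, of which 353 were miR-34 and 325 miR-449. By the mean over the 12 libraries, bta-miR-34a was the most abundant member with 26.7 normalized reads, at rank 156 of the 755 names. It was followed by bta-miR-449a with 17.8 (rank 165), bta-miR-449c with 6.50, bta-miR-34c with 5.01 (rank 210) and bta-miR-449b with 1.39 (rank 279). This order rests on DF at day 7, where bta-miR-34a had a mean of 82.0, since in both SF groups bta-miR-449a was the highest member. Mature miRNAs are of like length, but ligation to the sequencing adapters favours some sequences, so an order between miRNAs is approximate. The other two members were practically absent. There was 1 read of bta-miR-34b in all, in replicate 3 of DF at day 3, and bta-miR-449d had 0 of 3399610 reads, which allows a share of up to 8.82e-05%. The 4 most abundant members were detected in all 4 groups, and bta-miR-449b in SF and DF at day 7 only by the detection rule.

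**Figure D1:**
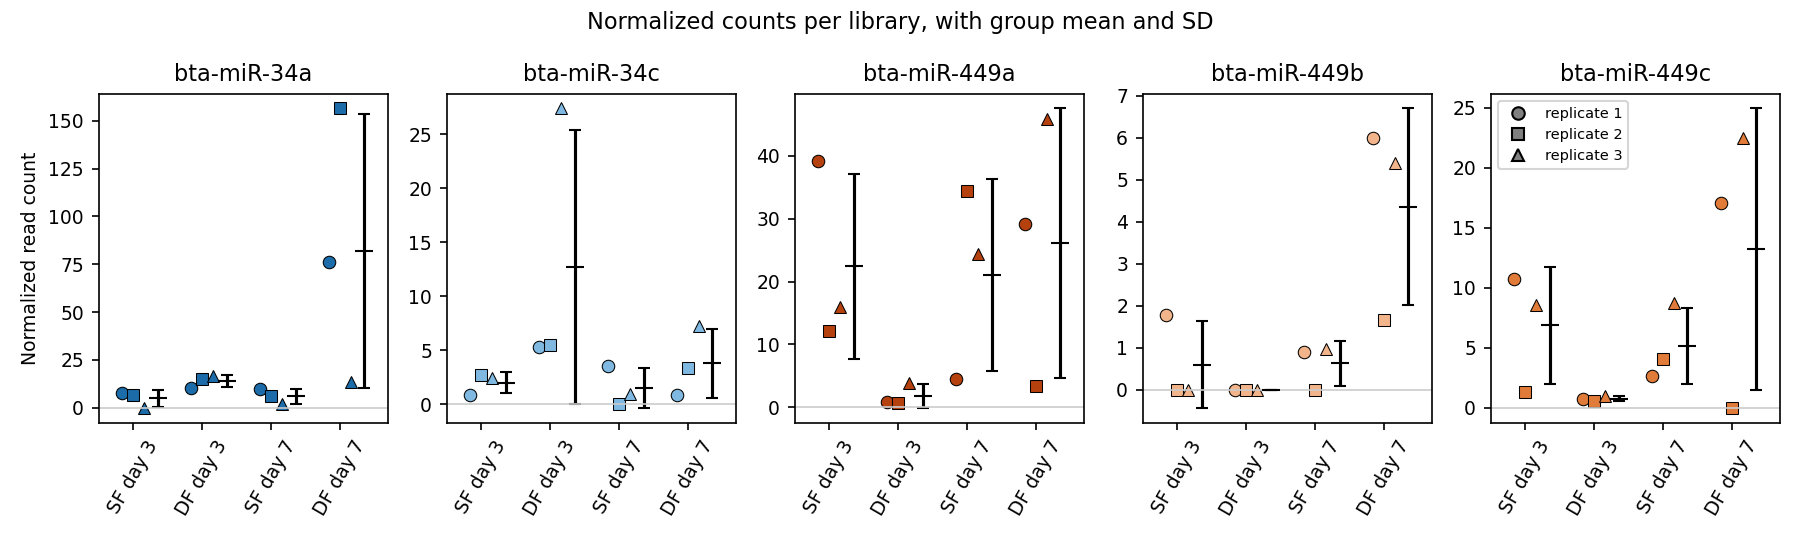
Normalized read counts of the 5 detected members (vertical axes, each panel with its own scale) in the 4 groups, with a point per library and the mean and SD (n = 3) beside each group. In DF at day 3 the 3 libraries were low for bta-miR-449a, bta-miR-449b and bta-miR-449c, and in DF at day 7 the points of bta-miR-34a spread from 13.5 to 156.

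bta-miR-34a, the member whose induction by p53 is best described, was highest in DF at day 7. The 3 libraries of this group had 76.1, 156 and 13.5 normalized reads, from 89, 94 and 15 reads counted. In DF at day 3 they had 10.5, 15.3 and 16.6. The SF libraries were lower, with 8.02, 6.73 and 0 at day 3 and 9.80, 6.07 and 1.95 at day 7. On both days each DF library was above each SF library, while in DF the lowest library of day 7 fell within the range of day 3. The group means were 82.0 ± 71.6 (SD, n = 3) in DF at day 7, 14.1 ± 3.20 in DF at day 3, 5.94 ± 3.93 in SF at day 7 and 4.92 ± 4.31 in SF at day 3. In this order, DF at day 7 overlapped DF at day 3, and the SF groups overlapped each other.

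bta-miR-34c, which is made from the same locus as bta-miR-34b, was highest in DF at day 3. Its libraries had 5.26, 5.50 and 27.4 normalized reads there, from 7, 9 and 28 reads. In DF at day 7 they had 0.855, 3.33 and 7.20. SF libraries of day 3 had 0.891, 2.69 and 2.44, and those of day 7 had 3.56, 0 and 0.975. All 3 libraries of DF at day 3 were therefore above the SF libraries of both days, and replicate 3 held most of the reads of its group. The order of the means was 12.7 ± 12.7 in DF at day 3, 3.79 ± 3.20 in DF at day 7, 2.01 ± 0.976 in SF at day 3 and 1.51 ± 1.84 in SF at day 7, and each group overlapped the next. Replicate 3 of DF at day 3 was also the library with the highest sum of the epithelial miRNAs bta-miR-141, bta-miR-200a, bta-miR-200b, bta-miR-200c, bta-miR-429, bta-miR-205 and bta-miR-375. This sum was 21.5 normalized reads, with 12.7 from bta-miR-141 and none from bta-miR-200c, against 0 to 4.89 in the other libraries of day 3. bta-miR-205 and bta-miR-375 had no read in any library, and the part of epithelial cells in the level of bta-miR-34c was not tested.

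bta-miR-449a, the leading miRNA of the CDC20B cluster, was lowest in DF at day 3. There its libraries had 0.751, 0.611 and 3.91 normalized reads, from 1, 1 and 4 reads. The SF libraries of day 3 had 39.2, 12.1 and 15.9, and those of day 7 had 4.46, 34.4 and 24.4. DF at day 7 was uneven, with 29.1, 3.33 and 45.9. Both SF groups were thus wholly above DF at day 3, and DF at day 7 was so in 2 of its 3 libraries. The means of the other groups, 26.1 ± 21.4 in DF at day 7, 22.4 ± 14.7 in SF at day 3 and 21.1 ± 15.2 in SF at day 7, did not differ beyond their spread, and that of DF at day 3 was 1.76 ± 1.86.

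bta-miR-449c followed the same order of groups at a lower level. In DF at day 3 it had 0.751, 0.611 and 0.977 normalized reads, 1 read in each library. In SF it had 10.7, 1.35 and 8.55 on day 3, then 2.67, 4.05 and 8.77 on day 7. Replicate 2 of SF at day 3 also had a single read, so that its rank above the libraries of DF at day 3 comes from the size factors alone, and the other SF libraries had 3 to 12 reads. In DF at day 7 it had 17.1, 0 and 22.5, so that replicate 2 lacked it at a depth of 160418 reads. The means were 13.2 ± 11.7 in DF at day 7, 6.86 ± 4.90 and 5.16 ± 3.20 in SF at day 3 and day 7, and 0.780 ± 0.185 in DF at day 3.

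bta-miR-449b was near the limit of detection. It had 7, 1 and 6 reads in DF at day 7, or 5.99, 1.66 and 5.40 normalized reads, and none in the 3 libraries of DF at day 3. The SF groups had 2 reads each, with 1.78, 0 and 0 normalized reads at day 3 and 0.891, 0 and 0.975 at day 7. Its means were 4.35 ± 2.34 in DF at day 7, 0.622 ± 0.540 in SF at day 7, 0.594 ± 1.03 in SF at day 3 and 0 in DF at day 3. Since the family members resemble each other in sequence and the mismatches allowed in counting were not given in the sources used here, some reads may be shared out wrongly between members, above all for those with few reads.

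To ask whether the family differed between small and large follicles when dominance is not yet settled, SF were compared with DF at day 3. The miR-34 members were lower and the miR-449 members higher in SF. bta-miR-449a was 16.4-fold and bta-miR-449c 9.91-fold higher in SF by the ratio of summed counts per size factor, the latter with a 95% counting interval of 2.94 to 52.1 for 20 against 3 reads. In DF, bta-miR-34a was 2.69-fold and bta-miR-34c 5.92-fold higher. A miRNA was called when its fold change was at least 1 on the log2 scale, its p did not exceed 0.05 and the false discovery rate was held to 10%. All 4 members tested were called, against 5.67% of the 335 miRNAs tested. The median log2 fold change was 0.78 over these members, which moved in opposite directions, and -0.04 over all miRNAs tested.

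In the quasi-likelihood test of edgeR, adjusted over all miRNAs by Benjamini-Hochberg, SF against DF at day 3 gave a log2 fold change of 3.80 ± 0.60 for bta-miR-449a (adjusted p = 7.04e-05, ± SE here and below). It was 3.04 ± 0.84 for bta-miR-449c (adjusted p = 0.0160), -2.64 ± 0.77 for bta-miR-34c (adjusted p = 0.0239) and -1.48 ± 0.54 for bta-miR-34a (adjusted p = 0.0723). The call of bta-miR-449a was kept in all 15 alternatives, with values from 3.05 without replicate 1 of SF to 4.87 without replicate 3 of DF when a library was left out. That of bta-miR-449c was lost without replicate 1 of SF (log2 fold change 2.53, adjusted p = 0.154) and with all 12 libraries in one fit (adjusted p = 0.177). bta-miR-34c lost its call without replicate 3 of DF (-1.51, adjusted p = 0.239), without replicate 1 (-2.21, adjusted p = 0.163) or 3 of SF (-2.83, adjusted p = 0.109), and with all 12 libraries in one fit (adjusted p = 0.182). bta-miR-34a kept its call in 9 of 16 alternatives, with adjusted p between 0.0255 and 0.419. It lost it with DESeq2 (adjusted p = 0.196), with precursor counts summed (adjusted p = 0.129), in one fit of all 12 libraries (adjusted p = 0.419), at a false discovery rate of 5%, and without replicate 3 of SF, where the value was -0.95 (adjusted p = 0.234), replicate 2 of DF (-1.43) or replicate 3 of DF (-1.36), and was -2.14 without replicate 1 of SF.

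When a dominant follicle was present, at day 7, the difference was carried by bta-miR-34a. This miRNA was 11.3-fold higher in DF by summed counts, with a log2 fold change of SF against DF of -3.66 ± 0.85 (adjusted p = 0.00854), and each DF library was above each SF library. The call was kept in all 16 alternatives, and without replicate 2 of DF, its highest library, the value was -2.80 (adjusted p = 0.0591). bta-miR-449b was also called, at -2.58 ± 0.88 (adjusted p = 0.0474). Its ratio was 7.62 with a 95% counting interval of 1.75 to 69.1, from 14 reads in DF and 2 in SF, and the call was lost with DESeq2 (adjusted p = 0.156), without replicate 2 of SF (-2.11, adjusted p = 0.115) and without replicate 1 of DF (-2.29, adjusted p = 0.162).

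The other members at day 7 did not pass the test. bta-miR-449a had a log2 fold change of -0.29 ± 0.76 (adjusted p = 0.769), with overlapping groups and 64 reads in SF against 87 in DF, and its sign turned without replicate 1 of SF (0.22) or replicate 3 of DF (0.30). bta-miR-449c stood at -1.35 ± 0.85 (adjusted p = 0.247). Without replicate 2 of DF, the library that lacked it, it passed at -1.85 (adjusted p = 0.0411). bta-miR-34c stood at -1.14 ± 1.02 (adjusted p = 0.410), with -2.57 without replicate 1 of SF and -0.11 without replicate 3 of DF. In all, 2 of 5 members tested were called, a share near that of all miRNAs, 33.4% of 350 tested. Both were lower in SF, as were 18.3% of the miRNAs tested, and the median log2 fold change was -1.35 over the members and -0.05 over all.

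Between day 3 and day 7, bta-miR-34a and the miR-449 members rose in DF. bta-miR-449a was 20.1-fold higher at day 7, with 87 reads against 6, and bta-miR-449c was 20.8-fold higher, with 45 reads against 3 and a 95% counting interval of 6.67 to 104. bta-miR-34a was 4.90-fold higher, with 198 reads against 56. bta-miR-449b had 14 reads against 0 and was at least 6.46-fold higher when 3 reads over the group are taken as the floor at day 3. The increase was not shared by all libraries, since replicate 2 of day 7 was within the range of day 3 for bta-miR-449a and below it for bta-miR-449c, and replicate 3 was within it for bta-miR-34a. bta-miR-34c had 11 reads at day 7 against 44 at day 3, a ratio of 2.89 in the other direction.

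In edgeR's test, bta-miR-449a (log2 fold change 4.02 ± 0.82, adjusted p = 0.00117), bta-miR-449c (4.01 ± 0.97, adjusted p = 0.00435) and bta-miR-34a (2.48 ± 0.63, adjusted p = 0.00584) were called as higher at day 7 in DF. bta-miR-449b, whose fitted value of 5.44 ± 1.28 depends on the prior count because it had no read at day 3, passed as well (adjusted p = 0.00489), but it was tested only because it had reads at day 7 and had to differ. Thus 4 of 5 members were called, against 40.3% of 360 miRNAs tested, and all 4 were higher at day 7, against 24.4% higher and 15.8% lower among all. Without bta-miR-449b this is 3 of 4 members. The members' median was 4.01 and that of all miRNAs 0.05. The calls of these 4 members were kept in every alternative in which they were tested. bta-miR-34a fell to 1.64 (adjusted p = 0.0344) without replicate 2 of day 7, and bta-miR-449a ranged from 3.42 without replicate 3 of day 7 to 5.05 without replicate 3 of day 3.

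bta-miR-34c did not pass in DF, with a log2 fold change of -1.66 ± 0.81 (adjusted p = 0.122). It did pass without replicate 3 of day 7 (-2.73, adjusted p = 0.0599) and without replicate 1 (-2.07, adjusted p = 0.0632) or 2 of day 3 (-2.07, adjusted p = 0.0983), as well as with library size alone as the scaling (-1.86, adjusted p = 0.0912) and without a filter on low counts (adjusted p = 0.0262). Without replicate 3 of day 3, the library with 28 of the 44 reads, it was -0.56 (adjusted p = 0.589).

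In SF, no member passed the test between the days. Of the 5 members tested 0 were called by edgeR, 0 had an unadjusted p under 0.05 and 0 were called by DESeq2, against 0.593% of 337 miRNAs called by edgeR. The log2 fold changes of day 7 against day 3 were 0.25 ± 0.79 for bta-miR-34a, -0.22 ± 1.02 for bta-miR-34c, -0.12 ± 0.59 for bta-miR-449a, -0.15 ± 1.32 for bta-miR-449b and -0.46 ± 0.67 for bta-miR-449c, with adjusted p between 0.928 and 0.972. Their median was -0.15, and that of all miRNAs tested 0.03. For bta-miR-449a this meant 66 reads at day 3 and 64 at day 7. At 2 to 66 reads per group, standard errors of 0.59 to 1.32 leave room for changes beyond the log2 threshold of 1 in these members.

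**Figure D2:**
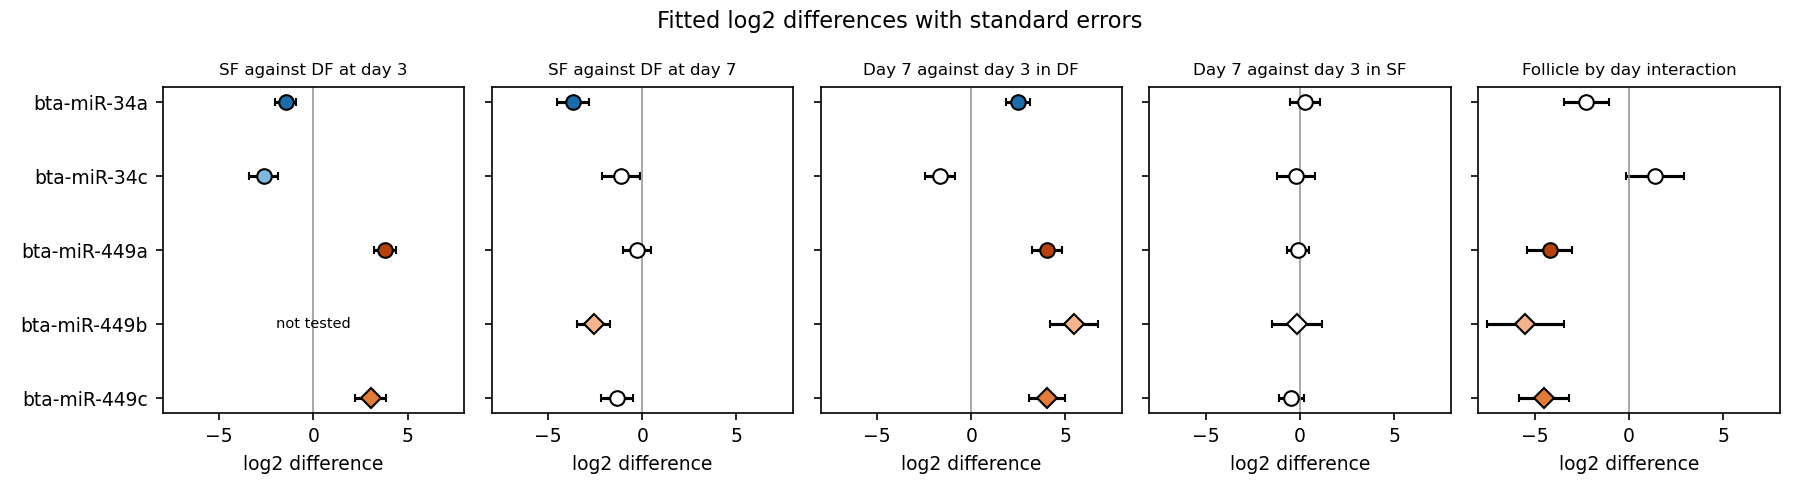
Fitted log2 differences (horizontal axes) of the 5 detected members in the 4 comparisons and for the follicle by day interaction, with SE as bars. Filled symbols passed the thresholds, open ones did not, and diamonds mark values for which a group had at most 3 reads; at day 3 bta-miR-449a stood at 3.80 and bta-miR-34c at -2.64, on opposite sides of 0, while in SF all 5 were open and within 0.46 of 0.

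Whether SF and DF differed to another extent at day 7 than at day 3 was tested as the interaction of follicle class and day over all 12 libraries. The comparisons above share libraries, DF at day 3 in particular, so they are not independent of each other or of this test. For the miR-449 members the difference changed: the SF against DF value at day 7 less that at day 3 was -4.21 ± 1.18 for bta-miR-449a (adjusted p = 0.0133) and -4.51 ± 1.31 for bta-miR-449c (adjusted p = 0.0154). These calls were kept in all 21 alternatives of each, with adjusted p of at most 0.0625 and 0.0668. Leaving out a library gave -5.24 without replicate 3 of DF at day 3, -3.48 without replicate 1 of SF at day 3 and -3.61 without replicate 3 of DF at day 7 for bta-miR-449a, and -5.11 without replicate 3 of SF at day 7 for bta-miR-449c.

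The remaining members were less certain in the interaction. bta-miR-449b was called at -5.50 ± 2.03 (adjusted p = 0.0618), on 18 reads in all, and lost the call without replicate 1 of SF at day 3 (-2.67, adjusted p = 1.00), without replicate 2 of DF at day 3 (adjusted p = 0.104) and with DESeq2 (adjusted p = 0.142). bta-miR-34a stood at -2.26 ± 1.21 (adjusted p = 0.213), so a larger difference at day 7 than at day 3 was not shown. It passed without replicate 3 of DF at day 7 (-2.79, adjusted p = 0.0308) and without a filter on low counts (adjusted p = 0.00583), and was -1.62 without replicate 1 of SF at day 3 and -1.42 without replicate 2 of DF at day 7. bta-miR-34c stood at 1.39 ± 1.54 (adjusted p = 0.570) and ranged from -0.08 without replicate 1 of SF at day 7 to 2.46 without replicate 3 of DF at day 7, with 0.27 without replicate 3 of DF at day 3. In all 3 of 5 members were called, against 26.5% of 378 miRNAs tested, and all 3 were lower, against 14.3%. These include bta-miR-449b, which had no read in DF at day 3 and was tested only because of its reads at day 7. DESeq2 called 2 members. The members' median was -4.21 and that of all miRNAs 0.02.

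Summed over the members, the family was highest in DF at day 7, and the other groups overlapped. The sums were 36.8 ± 20.7 normalized reads in SF at day 3, 29.7 ± 17.6 in DF at day 3, 34.3 ± 11.8 in SF at day 7 and 129 ± 35.1 in DF at day 7. The last group ranged from 94.5 to 165, above the highest library elsewhere, 60.6 in SF at day 3. Scaled by library size alone, the sums of the groups were 38.4, 34.2, 32.3 and 131 in the same order. Without replicate 3, the sum of DF at day 3 was 19.6. The make-up differed at day 3, since miR-34 contributed 6.93 and miR-449 29.9 normalized reads in SF, against 27.2 and 2.54 in DF.

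**Figure D3:**
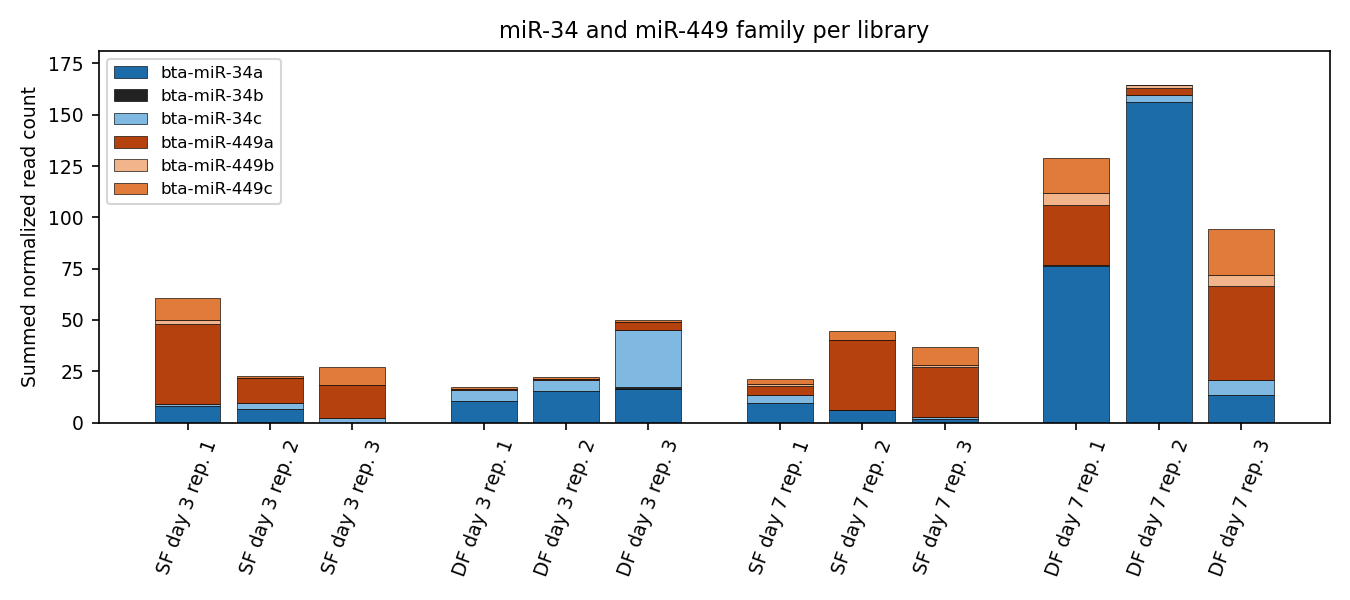
Summed normalized read count of the family in each of the 12 libraries (vertical axis), stacked by member with miR-34 in blues (the read of bta-miR-34b in black) and miR-449 in oranges. The DF libraries of day 3 were made up mostly of miR-34, and the SF libraries mostly of miR-449 except replicate 1 of day 7. The DF libraries of day 7 reached 129, 165 and 94.5 with a different mixture in each.

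The share of miR-449 among the reads of the family shows this per library. In DF at day 3 it was 8.70%, 5.56% and 9.80%, with 95% Wilson intervals that together span 1.54% to 26.8%. SF libraries of day 3 had 85.3%, 58.8% and 90.9%, and those of day 7 had 37.5%, 86.4% and 92.1%. Each SF library was thus above each library of DF at day 3, and replicate 1 of SF at day 7, with 9 of 24 reads, was the lowest of them with an interval of 21.2% to 57.3%. The 3 libraries of DF at day 7 had 40.4% (32.9% to 48.4%), 3.03% (1.04% to 8.53%) and 78.1% (69.3% to 84.9%), from 151, 99 and 105 reads of the family. The intervals cover counting error only, beyond which replicates vary, and were not used to compare libraries. DF at day 7 thus held a library with 3 reads of miR-449, a library in which miR-449 prevailed and an intermediate one.

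Within the family, the clustered members bta-miR-449a and bta-miR-449c varied together over the 12 libraries, with a Pearson r of 0.85 and a Spearman rho of 0.92 on log2 normalized reads. bta-miR-449b gave r of 0.64 with bta-miR-449c and 0.52 with bta-miR-449a. For bta-miR-34a and bta-miR-34c, which come from separate loci, r was 0.17 and rho 0.44. Across the subfamilies, r was -0.56 to -0.18 for bta-miR-34c with the 3 miR-449 members, -0.25 and -0.30 for bta-miR-34a with bta-miR-449a and bta-miR-449c, and 0.49 for bta-miR-34a with bta-miR-449b. These values describe libraries that fall into 4 groups and share their depth between members, and they carry no test. Among 183 other miRNAs with a mean of at least 10 normalized reads, the patterns most like bta-miR-34a were those of bta-miR-486 (r 0.82), bta-miR-204 (r 0.81) and bta-miR-22-3p (r 0.80), and those most like bta-miR-449a were bta-miR-148a (r 0.78), bta-miR-30f (r 0.77) and bta-miR-132 (r 0.70).

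Markers of other cells also differed between the groups and between the DF libraries of day 7. The leukocyte miRNAs bta-miR-142-3p, bta-miR-142-5p, bta-miR-150 and bta-miR-223, all 4 of them present, summed to 783 to 8636 normalized reads in DF at day 7. Their sums were 108 to 220 in SF and 116 to 162 in DF at day 3, with no read of bta-miR-142-3p, and 184 to 705 in SF at day 7. In the order of replicates 1, 2 and 3 of DF at day 7 the sums were 3110, 8636 and 783, which is the order of bta-miR-34a at 76.1, 156 and 13.5. The erythrocyte miRNAs bta-miR-486, with 1122, 2023 and 695, and bta-miR-451, with 172, 299 and 113, had the same order there, whereas bta-miR-144 had reads in replicate 1 only. In the other groups the library highest in bta-miR-34a was the highest in the leukocyte sum in SF at day 3 only. It was the highest in the sum of the erythrocyte miRNAs in SF and DF at day 3, but not in SF at day 7. The part of blood cells in the level of bta-miR-34a was not tested.

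bta-miR-449a had another order in DF at day 7, and bta-miR-143, a miRNA of smooth muscle and stroma, shared it, with 9633, 6474 and 13883 normalized reads for replicates 1, 2 and 3. It was singled out from its list after its values were seen. Of the other miRNAs on that list, bta-miR-145 had this order in DF at day 7 too, with 259, 249.5 and 308, and bta-miR-133a did not, being lowest in replicate 1 with 5.13. In SF at day 7, with 2793, 4701 and 3836, bta-miR-143 again had the order of bta-miR-449a. There bta-miR-145 had this order too, with 75.7, 207 and 136, and bta-miR-133a did not, being lowest in replicate 3 with 0.975. In SF at day 3 bta-miR-143 had the order of bta-miR-449a with 4757, 3581 and 3926, but bta-miR-145 and bta-miR-133a were highest in replicate 3 there. In DF at day 3 bta-miR-143 had another order, with 2112, 3793 and 2338. The full list of bta-miR-143, bta-miR-145 and bta-miR-133a, all 3 present, summed to 3696 to 4895 in SF and 2206 to 3895 in DF at day 3, and to 2871 to 4911 in SF and 6730 to 14200 in DF at day 7. bta-miR-202 in DF at day 7, at 753, 364 and 976, was likewise lowest in replicate 2 and highest in replicate 3. The endothelial pair bta-miR-126-3p and bta-miR-126-5p varied less, with sums from 61.6 to 221 over all libraries. The erythrocyte list, with bta-miR-144 and bta-miR-451 besides bta-miR-486, summed to 315 to 1642 in SF and 737 to 1087 in DF at day 3, and to 438 to 515 in SF and 808 to 2322 in DF at day 7. The part of these cells in the family's levels was not tested.

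**Figure D4:**
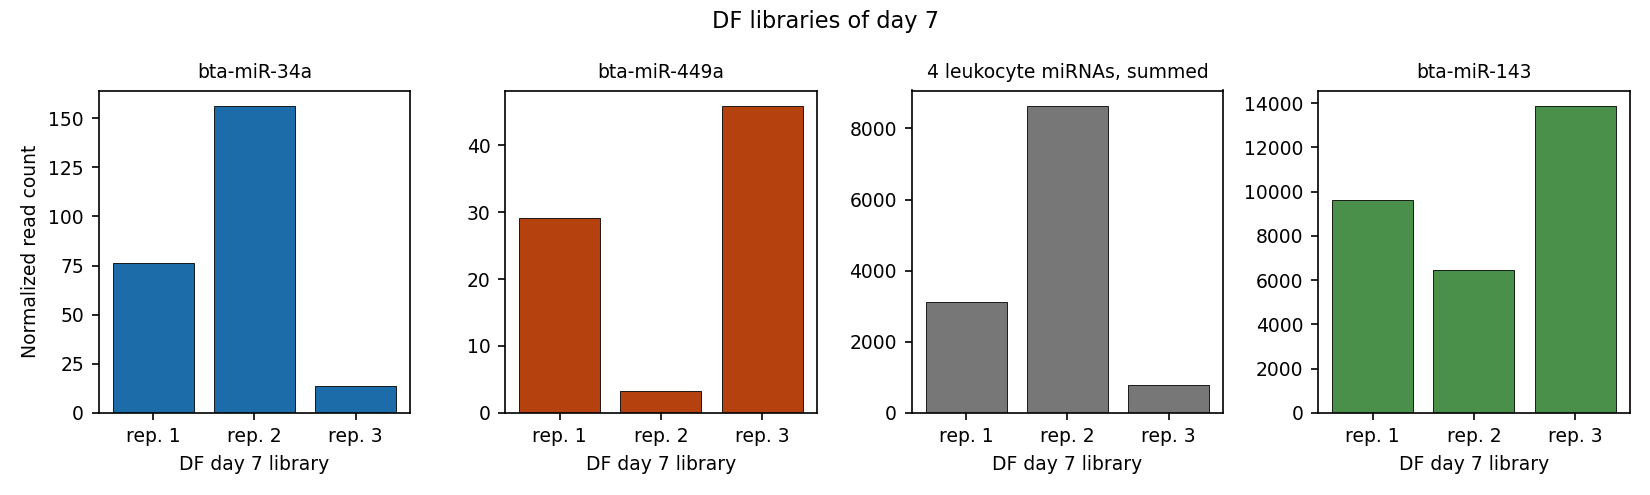
Normalized read counts (vertical axes, each from 0) in the 3 DF libraries of day 7 for bta-miR-34a, bta-miR-449a, the sum of the 4 leukocyte miRNAs and bta-miR-143, which was singled out of its list after its values were seen. Replicate 2 was highest for bta-miR-34a at 156 and for the leukocyte sum at 8636, and lowest for bta-miR-449a at 3.33 and bta-miR-143 at 6474.

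Other miRNAs known to respond to p53 were called in both directions wherever any were called. Their share was near that of all miRNAs between SF and DF at day 7. It was above that of all miRNAs between the days in DF and in the interaction, by few miRNAs of the 9 tested, and this excess was not tested. Of a list of 10 such miRNAs outside the family, all were in the counts and 9 were tested in each comparison, bta-miR-200c being too low. This list shares bta-miR-143 and bta-miR-145 with that of muscle and stroma above, and bta-miR-200c with the epithelial list. At day 3, 0 of the 9 were called between SF and DF by edgeR or DESeq2, although 6 had an unadjusted p under 0.05. Of these, bta-miR-16a, which restrains cyclin D1, had a log2 fold change of -0.78 ± 0.17 (adjusted p = 0.00178), short of the threshold of 1. At day 7, bta-miR-16b was higher in SF (1.08 ± 0.25, adjusted p = 0.00824), and bta-miR-107 (-1.54 ± 0.38, adjusted p = 0.0104) and bta-miR-143 (-1.32 ± 0.29, adjusted p = 0.00727) were lower, 3 of 9 against 33.4% of all miRNAs. From day 3 to day 7, bta-miR-107 (1.86 ± 0.33), bta-miR-143 (1.84 ± 0.28) and bta-miR-145 (1.57 ± 0.23) rose in DF, and bta-miR-194 (-1.27 ± 0.46) and bta-miR-16b (-1.22 ± 0.21) fell, 5 of 9 against 40.3% of all. In SF, 0 were called by either tool and 0 had an unadjusted p under 0.05. In the interaction 2 were higher and 3 lower, 5 of 9 against 26.5% of all. The medians of the list were -0.01 and -0.23 for SF against DF at day 3 and day 7, and 0.06 and 0.13 for day 7 against day 3 in DF and SF. Those of all miRNAs tested were -0.04, -0.05, 0.05 and 0.03. In the interaction the median was -0.16 for the list and 0.02 for all miRNAs tested.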

How the data were processed

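Small RNA libraries (Illumina TruSeq) of 12 granulosa cell samples were sequenced, and per the labels reads were called with CASAVA 1.8.0, checked with FastQC and trimmed with cutadapt. The authors aligned them to the bovine genome, counted reads on the known miRNAs of miRBase with miRDeep2 and deposited raw read counts per pair of mature miRNA and precursor, without normalization. Each mature name was represented here by its entry with the highest total, and each family member had a single entry. Groups came from the sample labels, which call the samples biological replicates without naming animals, so p-values measure the spread between these samples. The members, lists and thresholds were chosen with earlier results of these data known. All members were described, with the 3 miRNAs most like each member of at least 10 normalized reads.

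Comparisons used R 4.3.3 and edgeR 4.0.16 (RLE factors, two-sided quasi-likelihood F test, prior count of 0.125, Benjamini-Hochberg adjustment over all miRNAs detected in at least 1 group compared). SEs were approximated as the absolute log2 fold change over the root of the F statistic. Thresholds for a call were those given with the results. Normalized reads used factors over all 12 libraries. Intervals have a 95% confidence level. The procedure was also run on simulated counts with a fixed spread between replicates. In these data the spread differed between comparisons, so that run does not give their rate of false calls. Alternatives were DESeq2 1.42.0, TMM, scaling by library size, no filter, a filter of 10 reads in 3 or more libraries, a single fit of all 12 libraries, precursor counts summed, a replicate block, a prior count of 2, a false discovery rate of 5% and leaving out each library.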

Additional observations from a re-analysis of the deposited data

Results flagged for a closer look

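The difference between SF and DF was not the same on the 2 days for 3 members, by the interaction term of the quasi-likelihood test in edgeR, adjusted by Benjamini-Hochberg. The SF against DF log2 difference at day 7 less that at day 3 was -4.21 for bta-miR-449a (adjusted p = 0.0133), -4.51 for bta-miR-449c (adjusted p = 0.0154) and -5.50 for bta-miR-449b (adjusted p = 0.0618). For bta-miR-449a, all 3 libraries of DF at day 3, with 1 to 4 reads, were below all SF libraries, and the libraries of DF at day 7 lay on both sides of the lowest SF library. For bta-miR-449c, the DF libraries of day 3 had 1 read each, as did replicate 2 of SF at day 3, and those of DF at day 7 had 20, 0 and 25. The value of bta-miR-449b rests on 18 reads, with none in DF at day 3, and depends on the prior count, being -1.82 with a prior count of 2.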

How the results depend on the processing

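At day 3, 4 members were called between SF and DF, 1 with all 12 libraries in one fit, and 2 to 4 when a library was left out. When 10 reads were required in 3 or more libraries, 1 was called, bta-miR-34a, the only member then tested. At day 7 the 2 calls became 1 with DESeq2, 1 with that filter and 1 to 3 when a library was left out. With that filter bta-miR-449b was not tested at day 7. In DF, the 4 calls became 1 with that filter, which leaves fewer members tested, and 4 to 5 when a library was left out. Over all miRNAs, the 19 calls at day 3 became 11 with DESeq2, 12 with that filter, 8 in one fit and 10 without replicate 1 of SF, the 88 higher and 57 lower in DF became 92 in all with that filter, and the 2 in SF became 5 with DESeq2, 12 without a filter, 0 with that filter, 1 in one fit, and 0 to 20 when a library was left out. Beyond the removal of names by that filter, the cause of these changes was not tested.

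Signs that turned belonged to values that had not passed. When a library was left out, bta-miR-449a at day 7 ranged from -0.85 to 0.30. In SF, day 7 against day 3 ranged from -0.35 to 0.84 for bta-miR-34a, -1.68 to 0.27 for bta-miR-34c, -0.72 to 0.56 for bta-miR-449a, -0.62 to 2.53 for bta-miR-449b and -1.04 to 0.0077 for bta-miR-449c. bta-miR-34c ranged from -0.075 to 2.46 in the interaction.

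The replicate numbers were not taken to pair the samples, since the study described no such pairing and the labels do not name animals. Deviations of samples with the same number correlated between -0.12 and 0.14 over 185 miRNAs. This range includes comparisons between the days, which used different heifers, so it does not settle pairing within a day. Between SF and DF at day 7 every sample correlated best with its own number (0.085 to 0.126), a hint from the data only, and the other comparisons showed no such order. With the replicate block, bta-miR-449b in SF was 0.0090, bta-miR-34c in DF was called as lower at day 7 (-1.78, adjusted p = 0.0203 by edgeR), 7 miRNAs were called in SF, and no other call of a member changed. With few reads per library, most members could show large differences only.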
